A study of Rattus norvegicus with 6 samples.

Results

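The genes of the rat major histocompatibility complex (MHC, named RT1 in the rat) and of the machinery that loads peptides onto its products were examined in INS-1 cells with and without added alpha smooth muscle actin. Members were all named genes of the count table whose symbol starts with RT1-, together with B2m, Tap1, Tap2, Tapbp, Tapbpl, Erap1, Nlrc5, Cd74 and Ciita. This gave 37 of 21553 named genes: 20 class I heavy chain genes, 8 class II chain genes and the 9 others. INS-1 is an insulin-secreting line from a rat insulinoma. Both groups were grown in the same serum-containing medium. INS-MOCK (n = 3) carries the wild type genotype label, and INS-SMA (n = 3) cells were made with lentivirus to overexpress α-SMA. The series calls the samples of a group biological replicates. The sources used here do not say whether INS-MOCK cells received an empty virus, whether INS-SMA is 1 clone, or which promoter drives the added gene.

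MHC class I molecules pair a heavy chain with β2-microglobulin and show peptides made inside the cell to cytotoxic T cells. The TAP transporter moves those peptides into the endoplasmic reticulum, where tapasin and its partners load them. Class II molecules are normally restricted to professional antigen-presenting cells, where the invariant chain CD74 guards their groove until peptides are loaded. Raised class I on beta cells is a known feature of islets in type 1 diabetes.

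The human ACTA2 sequence had 135, 103 and 167 counts in INS-MOCK and 941093, 1141322 and 1139159 in INS-SMA. Total counts ran from 24719503 to 39608609 per library. Rows with no gene name took 32.7% to 36.7% of them, so that reads of a member assigned to such a row are missing from its value. Of 11 beta cell markers, all were tested, 10 fell and 0 rose, with a summed level of 38247 to 41074 CPM in INS-MOCK and 3772 to 4627 CPM in INS-SMA (CPM, counts scaled by the normalised library size). Of 18 interferon genes, 17 were named, 12 rose and 1 fell. INS-MOCK replicate 1 stood above the other INS-MOCK libraries in some of them, with 252 counts of Rsad2 against 28 and 35, and also in Stat2 (1670 against 839 and 888). Among the interferon genes the chemokine gene Cxcl10 (log2 fold change 7.66), the kinase gene Jak2 (1.44) and Gbp5, a guanylate-binding protein gene with 2 counts in all INS-MOCK libraries and 4380 to 7172 in each INS-SMA library, had the smallest adjusted p-values. Gbp5 could pass the filter on low counts only through INS-SMA, so its direction was fixed by being tested.

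All 37 members had at least 1 count in some library, and 29 passed the filter on low counts and were tested. Of these 29, 17 rose in INS-SMA at an edgeR adjusted p under 0.05 and 0 fell. Among all 13363 tested genes, 28.1% rose, 27% fell and 55.1% did either. The share of members that passed, 58.6%, was thus near the share of all genes, while all 17 that passed were higher. At an unadjusted p under 0.05 the member counts were also 17 and 0, and DESeq2 called 18 higher and 0 lower. The median log2 fold change of the tested members was 2.05, against 0.03 over all tested genes. Setting the 4 members without INS-MOCK counts to a lower bound could not change it, since each bound lay above it. However, 8 of the 29 passed the filter only through INS-SMA, so their direction was fixed by being tested: RT1-N2, RT1-Ba, RT1-Bb and RT1-Da, with 0 counts in every INS-MOCK library, and RT1-DMb, Cd74, Ciita and RT1-S2. Of the other 21, 10 rose and 0 fell. The fitted values of the 8 all lay at or above the median of 2.05, so the median of the other 21 was lower. In 18 of the 29 the groups did not overlap with INS-SMA the higher, where 33.5% of all tested genes did so and 65.3% did not overlap in one direction or the other. These 18 include all 8 that passed the filter only through INS-SMA, whose separation the filter itself favoured. Members took 0.118% to 0.145% of the named counts of an INS-MOCK library and 0.333% to 0.380% of an INS-SMA library. In these bulk cultures, fewer cells of a type and less RNA per cell cannot be told apart.

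**Figure D1:**
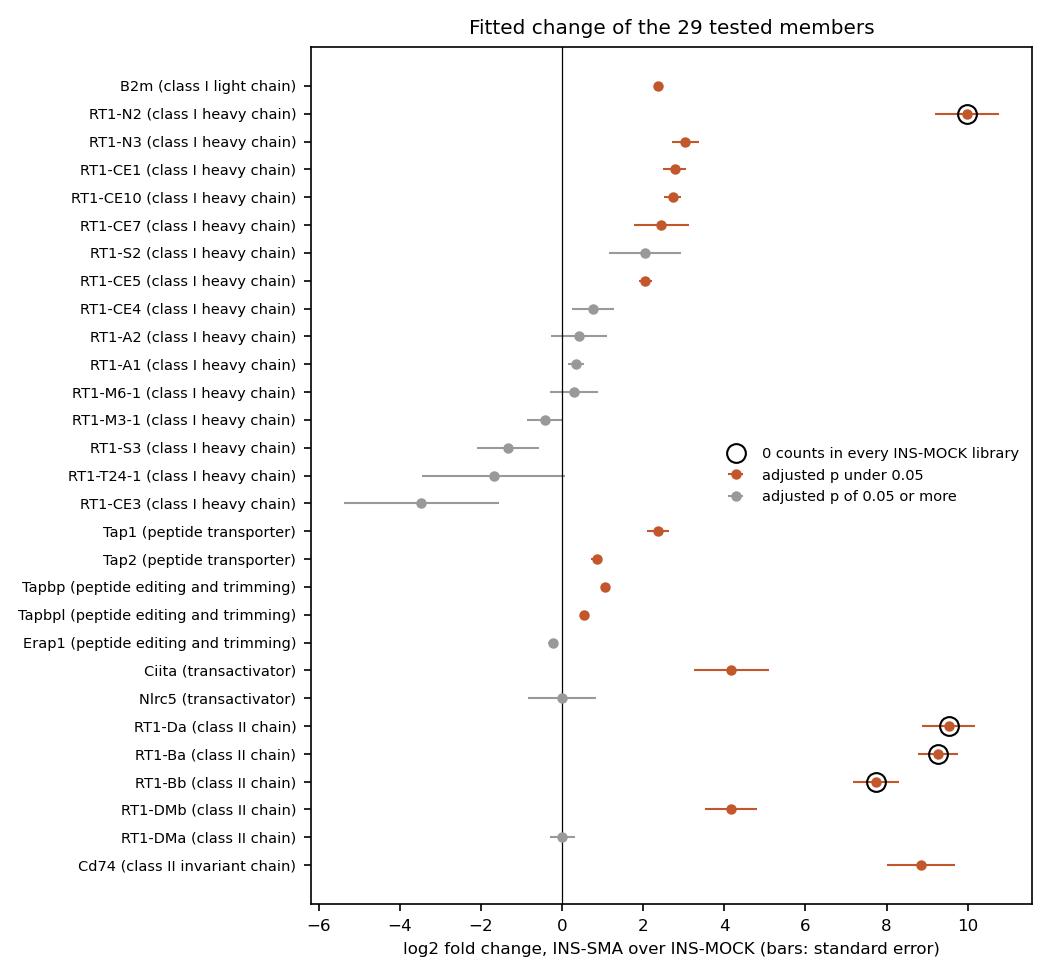
Log2 fold change of INS-SMA over INS-MOCK (x axis) for the 29 tested members (y axis, with the role of each), with bars for the standard error of the edgeR fit. All 17 points past the threshold lie to the right of 0, and the 4 circled genes, whose fitted values are not bounds, had no counts in INS-MOCK.

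The sequences just before the transcription start of 6 members are shown because they include genes that rose (B2m, Tap1, Tapbp, RT1-CE10), the class II gene RT1-Da with no INS-MOCK counts, and RT1-A1, which did not pass the test. They are RefSeq windows of 250 bases on build GRCr8, whereas gene coordinates elsewhere in the text are those of the deposited table, which names no build (the submitters' processing notes list rn6). Of the 37 members, 30 matched a window, and RT1-CE7, RT1-M2, RT1-M4, RT1-DMb, Erap1, Ciita and Nlrc5 did not. Capitals mark matches on either strand to the interferon-stimulated response element (ISRE) core, a pair of GAAA blocks with any 2 bases between them, a shorter form GAANNGAAA, the kappaB motif and the Y box CCAAT.
B2m, chr3:129549080-129549329, plus strand: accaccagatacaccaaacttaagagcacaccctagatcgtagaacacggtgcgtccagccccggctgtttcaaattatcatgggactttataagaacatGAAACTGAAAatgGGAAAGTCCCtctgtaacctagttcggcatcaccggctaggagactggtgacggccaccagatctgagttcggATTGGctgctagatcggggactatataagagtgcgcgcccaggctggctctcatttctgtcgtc
Tap1, chr20:4668544-4668793, minus strand: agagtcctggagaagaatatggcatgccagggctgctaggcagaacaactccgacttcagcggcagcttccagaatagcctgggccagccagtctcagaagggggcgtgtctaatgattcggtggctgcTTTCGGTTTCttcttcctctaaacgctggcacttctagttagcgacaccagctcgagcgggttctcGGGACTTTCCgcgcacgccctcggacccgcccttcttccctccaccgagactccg
Tapbp, chr20:4967878-4968127, minus strand: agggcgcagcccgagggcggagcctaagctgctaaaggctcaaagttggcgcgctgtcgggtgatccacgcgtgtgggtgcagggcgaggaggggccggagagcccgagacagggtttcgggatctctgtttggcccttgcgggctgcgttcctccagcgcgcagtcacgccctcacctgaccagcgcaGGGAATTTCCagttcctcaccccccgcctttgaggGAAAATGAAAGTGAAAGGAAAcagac
RT1-CE10, chr20:3384980-3385229, minus strand: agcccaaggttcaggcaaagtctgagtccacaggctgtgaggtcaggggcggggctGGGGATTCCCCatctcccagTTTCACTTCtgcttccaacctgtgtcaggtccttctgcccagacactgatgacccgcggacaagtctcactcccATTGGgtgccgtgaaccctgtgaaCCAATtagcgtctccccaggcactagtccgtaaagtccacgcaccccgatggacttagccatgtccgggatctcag
RT1-A1, chr20:4906959-4907208, plus strand: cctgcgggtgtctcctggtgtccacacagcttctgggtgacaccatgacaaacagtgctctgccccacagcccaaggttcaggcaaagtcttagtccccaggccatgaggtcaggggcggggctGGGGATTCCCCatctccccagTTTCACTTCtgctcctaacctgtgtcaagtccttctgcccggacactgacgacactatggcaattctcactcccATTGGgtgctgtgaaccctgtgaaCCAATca
RT1-Da, chr20:4515165-4515414, plus strand: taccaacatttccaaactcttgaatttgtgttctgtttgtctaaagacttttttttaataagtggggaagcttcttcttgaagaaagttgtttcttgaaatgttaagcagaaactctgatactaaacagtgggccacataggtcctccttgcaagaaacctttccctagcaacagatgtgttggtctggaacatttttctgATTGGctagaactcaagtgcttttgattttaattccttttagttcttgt

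Matches to the ISRE core lie in 3.41% of all 33469 RefSeq windows of this length and in those of 7 of the 30 matched members, namely B2m, Tap1, Tap2, Tapbp, RT1-N3, RT1-S2 and RT1-S3. The match began at position -150 from the start in B2m and at -121 in Tap1. The window of Tapbp held a pair of overlapping matches, at -26 and -20. The form GAANNGAAA, which can overlap the longer one, was found in 10 of 30 member windows and in 7.12% of all windows. RT1-CE10 and RT1-A1 both carried it on the minus strand, at -174 and -105, with a kappaB match just upstream of it. RT1-CE10 rose and RT1-A1 did not pass the test, and their windows held the same marked motifs in the same order. The kappaB motif was in 10 of 30 member windows against 3.54% of all. RT1-A1, RT1-A2, RT1-CE4, RT1-CE5 and RT1-CE10 each held the kappaB, shorter ISRE and Y box matches. Such close copies were counted as separate windows, which raises the member shares of these motifs. CCAAT was in 22 of 30 against 34% of all, and in the class II gene RT1-Da it was the only marked match. The letters TGACG, the core of the cyclic AMP response element, were in 7 of 30 against 18.2%. These are matches of letters, searched on both strands, and binding was not measured.

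B2m, which encodes the β2-microglobulin light chain of every class I molecule, rose in every INS-SMA library. It lies on chromosome 3 (114087287 to 114093309, plus strand). Its level was 255.6, 224.8 and 217.6 CPM in the INS-MOCK libraries and 1133, 1208 and 1276 CPM in the INS-SMA libraries. The lowest INS-SMA library was thus more than 4 times the highest INS-MOCK library. The log2 fold change was 2.37 (SE 0.08, edgeR adjusted p = 1.23e-05), a 5.18-fold rise, and it was 2.33 to 2.47 over the alternatives.

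The class I heavy chains did not move as 1 block. Of 20 genes, 15 were tested, 6 rose, 0 fell and 9 did not pass the test. The 40% that rose compares with 28.1% of all tested genes, and 55.1% of all tested genes passed in either direction. The median log2 fold change of the tested class I genes was 0.76. It includes RT1-N2 and RT1-S2, which passed the filter only through INS-SMA and lay above that median. The genes that rose were RT1-CE1, RT1-CE5, RT1-CE7, RT1-CE10, RT1-N2 and RT1-N3. The N genes are nonclassical (class Ib) genes, and the CE genes are named for the RT1-C/E region. The classical gene RT1-A1 did not pass.

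RT1-A1 (chromosome 20, 5351605 to 5421098, plus strand) encodes the classical class Ia heavy chain, the main peptide-presenting chain. Its level was 513.3, 425.7 and 331.2 CPM in INS-MOCK and 617.7, 453.4 and 539.2 CPM in INS-SMA. The groups overlapped, since INS-SMA replicate 2 lay below INS-MOCK replicate 1. The log2 fold change was 0.34 (SE 0.19, edgeR adjusted p = 0.186). Without INS-MOCK replicate 1 it was 0.51 (adjusted p = 0.082), and the alternatives spanned adjusted p-values of 0.0529 to 0.796. RT1-A1 was counted in 6 transcript rows, and these differed. The most abundant, with 60.8% of its INS-MOCK counts, changed by 0.14 on that scale and did not pass (adjusted p = 0.796 in the fit of transcript rows). The second, with 34.9%, rose by 0.55 on the log2 scale (SE 0.07, adjusted p = 0.0043). The neighbouring classical gene RT1-A2, whose gene model lies within that of RT1-A1, was at 18.0, 6.14 and 2.82 CPM in INS-MOCK and 15.5, 9.59 and 10.9 CPM in INS-SMA. One of its rows held 376 of the 436 counts in INS-MOCK replicate 1 and at most 3 in every other library. For the gene sum the log2 value was 0.42 (adjusted p = 0.645), and for the other row alone it was 1.62 (adjusted p = 0.0478).

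RT1-CE10 (chromosome 20, 154074 to 157861, minus strand) lies apart from the other CE genes in the coordinates of the table. Its level was 28.5, 29.3 and 23.4 CPM in INS-MOCK and 140.7, 171.7 and 225.8 CPM in INS-SMA. The groups stood well apart, although INS-SMA libraries spread by more than INS-MOCK libraries (179 ± 43.1 against 27.1 ± 3.19 CPM, SD, n = 3). On the log2 scale it rose by 2.73 (SE 0.20, edgeR adjusted p = 1.51e-04), or 6.62-fold. RT1-CE5 went from 17.9, 15.5 and 20.6 CPM to 61.9, 79.1 and 81.8 CPM, a rise of 2.05 on the log2 scale (SE 0.16, adjusted p = 1.82e-04). RT1-CE1 had few counts, 24, 19 and 17 in INS-MOCK and 113, 94 and 170 in INS-SMA, and rose by 2.78 on the log2 scale (SE 0.28, adjusted p = 5.01e-04). Neither gene had overlapping groups.

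RT1-CE7 lost its call under several alternatives. It was at 5.58, 6.23 and 1.07 CPM in INS-MOCK and 18.9, 19.4 and 31.8 CPM in INS-SMA, with INS-MOCK replicate 3 far below its group. Its rise of 2.44 (log2, SE 0.68) passed with an edgeR adjusted p of 0.0264. The adjusted p was 0.0568 without INS-MOCK replicate 1, and 0.0524, 0.0531 and 0.0734 without INS-SMA replicates 1, 2 and 3. It was 0.0936 in the most abundant row. All alternatives together spanned 7.56e-05 (DESeq2) to 0.0936. RT1-CE4 was at 17.5, 10.6 and 15.3 CPM in INS-MOCK and at 44.6, 12.9 and 16.5 CPM in INS-SMA. Here 1 library, INS-SMA replicate 1, stood high, and the log2 fold change of 0.76 did not pass (adjusted p = 0.271). RT1-CE3 had 19, 140 and 0 counts in INS-MOCK and 9, 1 and 2 in INS-SMA, again uneven (log2 fold change -3.47, adjusted p = 0.182). The gene models of RT1-CE1 and RT1-CE4 overlap each other and those of RT1-CE3, RT1-CE5 and RT1-CE7 on the same strand, and RT1-CE5 overlaps RT1-CE7. Class I genes are close copies, so the division of reads among them is uncertain.

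Among nonclassical class I genes, RT1-N3 (chromosome 20, 3167079 to 3170945) rose from 4.87, 2.24 and 3.12 CPM to 23.6, 28.9 and 31.7 CPM. The log2 rise was 3.04 (SE 0.33, edgeR adjusted p = 6.46e-04). RT1-N2 had no counts in INS-MOCK and 100, 169 and 84 counts in INS-SMA, so it was at least 44.1-fold higher against a floor of 3 counts per library (edgeR adjusted p = 0.00158). The RT1-N and RT1-S genes lie side by side, yet RT1-S3 had 19, 154 and 95 counts in INS-MOCK and 26, 24 and 51 in INS-SMA. INS-MOCK replicate 1 was the lowest of the 6 libraries in CPM, and the other 2 of its group were the highest. The log2 value of -1.33 did not pass (adjusted p = 0.2). Without INS-MOCK replicate 1 it was -1.81 and passed (adjusted p = 0.0185), where the alternatives gave up to 0.533. RT1-S2 had 9, 0 and 6 counts against 12, 22 and 24, and its log2 value of 2.05 did not pass (adjusted p = 0.105). Without INS-MOCK replicate 2 (0.0312) and by DESeq2 (0.00855) it passed, and the highest adjusted p among the alternatives was 0.211.

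RT1-M3-1, whose product presents N-formylated peptides, was at 4.13, 5.29 and 8.93 CPM in INS-MOCK and 6.67, 2.75 and 4.36 CPM in INS-SMA. The groups overlapped and the log2 fold change of -0.41 did not pass (edgeR adjusted p = 0.475). RT1-M6-1 (0.30) and RT1-T24-1 (-1.69) did not pass either. RT1-M2, RT1-M4, RT1-M6-2, RT1-T24-3 and RT1-T24-4 were not tested. The last had 0, 0 and 4 counts in INS-MOCK and 8, 7 and 19 in INS-SMA. It passed both the filter and the test without INS-MOCK replicate 3 (adjusted p = 0.0136, with up to 0.137 under other alternatives). That library held all of its INS-MOCK counts, so without it RT1-T24-4 passed the filter only through INS-SMA and its direction was fixed. The other 4 untested genes had no more than 58 counts in any library, and RT1-M6-2 had all of its 20 counts in INS-MOCK replicate 1.

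**Figure D2:**
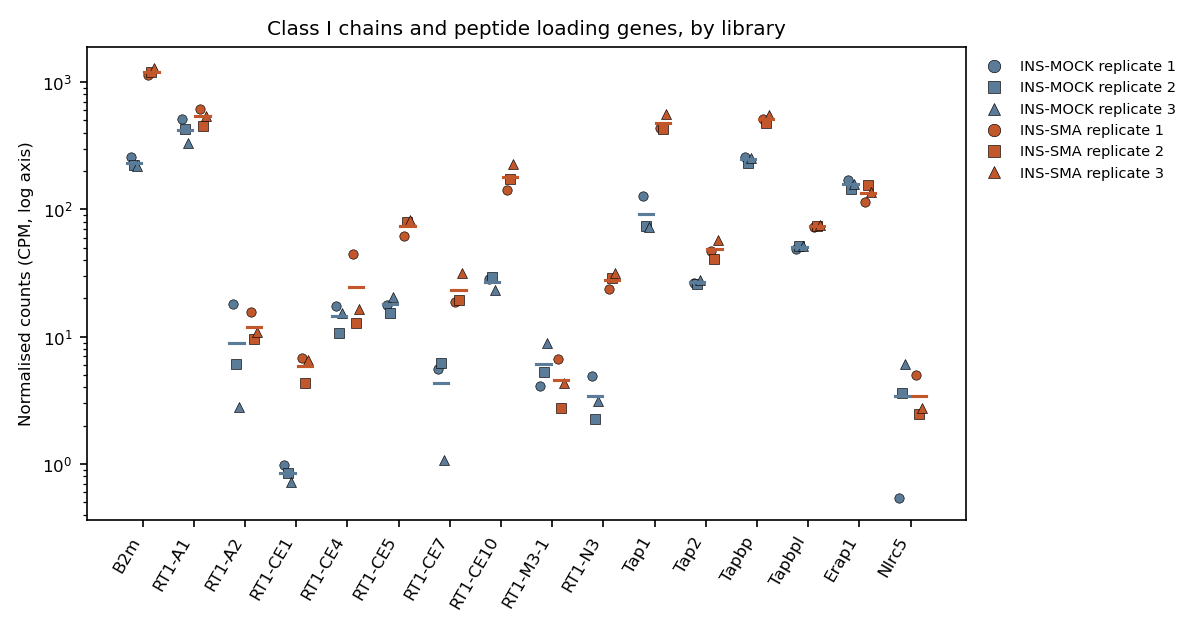
Normalised counts (CPM, log axis) of 16 class I, peptide loading and regulator genes in each of the 6 libraries, with a line at each group mean. B2m, RT1-CE10, RT1-CE5, RT1-N3, Tap1 and Tapbp separate fully, whereas RT1-A1, RT1-A2, RT1-CE4, RT1-M3-1, Erap1 and Nlrc5 overlap.

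Because reads can be divided among class I copies in more than 1 way, the 20 heavy chain genes were also summed. The sum was 614.0, 518.2 and 416.9 CPM in INS-MOCK and 947.7, 794.4 and 958.1 CPM in INS-SMA, 1.74-fold higher and without overlap. Without RT1-A1 the other 19 genes went from 93.0 ± 7.55 to 363 ± 48.5 CPM (SD, n = 3), 3.91-fold higher. RT1-A1 held 83.6%, 82.2% and 79.4% of class I counts in INS-MOCK and 65.2%, 57.1% and 56.3% in INS-SMA. RT1-CE10 went from 4.65%, 5.65% and 5.62% to 14.8%, 21.6% and 23.6%. RT1-A1 thus gave up share in every INS-SMA library. These are shares of counts, not of molecules, and are not corrected for transcript length. B2m counts per class I count were 0.416, 0.434 and 0.522 in INS-MOCK and 1.20, 1.52 and 1.33 in INS-SMA, with no overlap (p = 0.1 by an exact permutation test, two-sided, the least that 3 against 3 libraries can give).

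**Figure D3:**
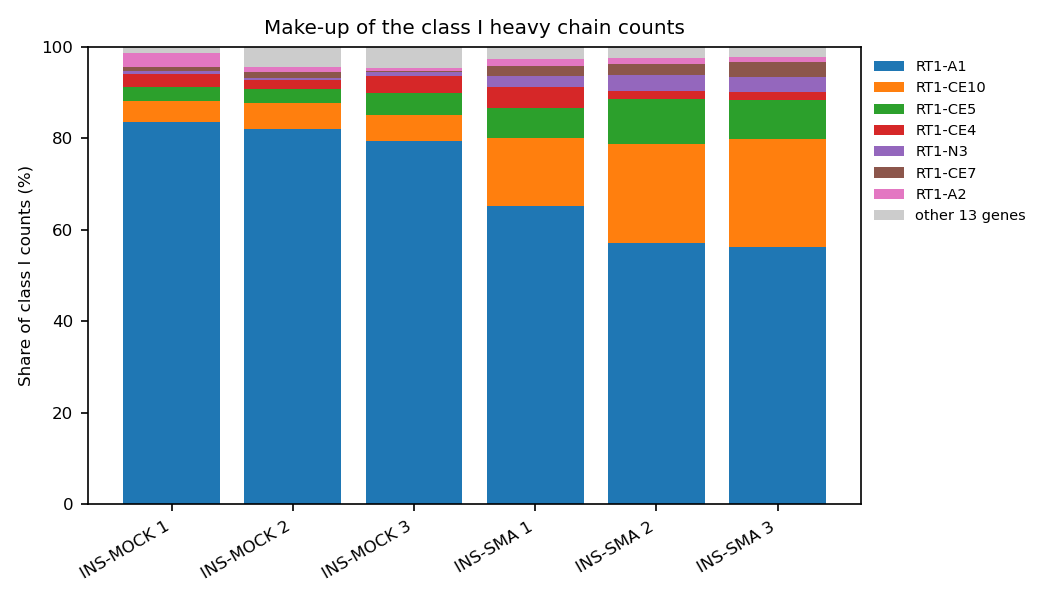
Share of class I heavy chain counts (%) held by each of 7 genes and by the other 13 together, in each library. RT1-A1 takes 79.4% or more in each INS-MOCK library and 65.2% or less in each INS-SMA library, and RT1-CE10 takes up most of the difference.

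Both subunits of the TAP peptide transporter rose, but unequally. Tap1 (chromosome 20, 3979035 to 3989669, plus strand) was at 127.6, 74.2 and 72.4 CPM in INS-MOCK and 433.6, 428.7 and 556.0 CPM in INS-SMA. INS-MOCK replicate 1 was well above its group, as it was for Stat2. On the log2 scale Tap1 rose by 2.37 (SE 0.27, edgeR adjusted p = 7.69e-04), 5.17-fold, and by 2.69 without that library. Tap2 (chromosome 20, 3995544 to 4009587, plus strand) went from 26.6, 26.0 and 27.9 CPM to 47.2, 40.9 and 57.5 CPM. It rose by 0.85 on the log2 scale (SE 0.14, adjusted p = 0.0031). There were 4.80, 2.85 and 2.59 Tap1 counts per Tap2 count in INS-MOCK and 9.19, 10.5 and 9.67 in INS-SMA (p = 0.1 by the same exact permutation test). Psmb9, which encodes an immunoproteasome subunit, lies on the minus strand with its start facing that of Tap1, 189 bases away in the coordinates of the table. Psmb9 rose from 26.8 ± 2.73 to 92.4 ± 6.46 CPM (log2 fold change 1.79, adjusted p = 4.97e-05).

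Tapbp, which encodes tapasin, the bridge between TAP and class I, was at 255.2, 231.5 and 254.4 CPM in INS-MOCK and 515.7, 478.0 and 551.6 CPM in INS-SMA. This 2.09-fold rise was even across libraries (log2 fold change 1.06, SE 0.07, edgeR adjusted p = 8.90e-05). Tapbpl encodes TAPBPR, a related peptide editor, and lies on chromosome 4. It rose less, from 48.7, 51.1 and 51.5 CPM to 72.3, 73.4 and 75.6 CPM (log2 fold change 0.55, SE 0.05, adjusted p = 2.94e-04). Erap1, an aminopeptidase that trims peptides in the endoplasmic reticulum, was at 170.8, 144.8 and 157.9 CPM in INS-MOCK and 114.0, 154.2 and 136.2 CPM in INS-SMA. The groups overlapped, and the log2 fold change of -0.23 (SE 0.12) did not pass (adjusted p = 0.18). Thus 2 of these 3 genes rose, where 28.1% of all tested genes rose and 55.1% passed in either direction.

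Nlrc5 encodes the transactivator of class I genes. Its counts were 13, 80 and 143 in INS-MOCK and 83, 54 and 71 in INS-SMA, so INS-MOCK libraries enclosed all INS-SMA libraries in CPM. The fitted log2 value was -0.0036 with an SE of 0.83 (edgeR adjusted p = 0.997). It ranged from -0.50 without INS-MOCK replicate 1 to 0.73 without INS-MOCK replicate 3, and neither passed. Nlrc5 had only 1 named row, and its SE was close in size to the log2 rise seen for Tapbp (1.06).

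Class II genes, which beta cells normally do not express, were at or near 0 in INS-MOCK except for RT1-DMa. RT1-Ba and RT1-Bb encode the α and β chain of the RT1-B molecule. RT1-Ba was at 0 throughout INS-MOCK and had 68, 72 and 77 counts in INS-SMA, at least 26.9-fold higher (edgeR adjusted p = 5.26e-04). RT1-Bb was likewise at 0 in INS-MOCK and had 16, 29 and 33 counts in INS-SMA, at least 9.25-fold higher (adjusted p = 0.00129). RT1-Da, the α chain of the RT1-D molecule, had 0 counts in INS-MOCK and 87, 60 and 114 in INS-SMA, at least 32.1-fold higher (adjusted p = 0.0011). These levels were low, with a mean of 4.14 ± 1.26 CPM for RT1-Da in INS-SMA (SD, n = 3). RT1-Db1, its β chain, had 0 counts in INS-MOCK and 4, 6 and 23 in INS-SMA and did not reach the filter. Without a low-count filter its adjusted p was 0.0257.

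The class II peptide exchange factors differed from one another. RT1-DMb had 1, 1 and 0 counts in INS-MOCK and 13, 12 and 13 in INS-SMA, a ratio of 20.7 (95% interval 5.35 to 177, edgeR adjusted p = 0.00284). Its partner RT1-DMa had 43, 38 and 49 counts in INS-MOCK and 21, 52 and 50 in INS-SMA, and its log2 value of 0.01 (SE 0.30) did not pass (edgeR adjusted p = 0.985). The groups overlapped for RT1-DMa and not for RT1-DMb. RT1-DOa and RT1-DOb, whose products restrain the DM exchange factor, had 0 counts in INS-MOCK and at most 4 in an INS-SMA library. Of 5 tested class II genes 4 rose, where 28.1% of all tested genes rose and 55.1% passed in either direction. However, all 4 passed the low-count filter only through INS-SMA and could not have been tested otherwise. The fitted median log2 value of the 5 was 7.75, and 4.16 with genes at 0 set to their bound. All 8 class II genes summed were at 1.82, 1.75 and 2.09 CPM in INS-MOCK and 12.86, 10.92 and 12.21 CPM in INS-SMA. This sum was 6.36-fold higher in INS-SMA. RT1-DMa held 130 counts in the INS-MOCK libraries together and 123 in INS-SMA. The 7 class II genes other than RT1-DMa held 2 counts in INS-MOCK and 643 in INS-SMA. Their ratio was 350 (95% interval 96.6 to 2900), which leaves out the 1 tested class II gene that did not rise.

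Cd74, the invariant chain gene, lies outside the MHC (chromosome 18, 56071478 to 56080849). It had 0, 3 and 9 counts in INS-MOCK and 1401, 1744 and 2103 in INS-SMA. In CPM the INS-SMA libraries lay within a narrow range, 84.2, 80.0 and 81.8. The fitted log2 rise was 8.85 (SE 0.84, edgeR adjusted p = 3.81e-04), and 10.18 without INS-MOCK replicate 3, which held 9 of the 12 INS-MOCK counts. Ciita, the master regulator of class II genes, had 0, 2 and 0 counts in INS-MOCK and 13, 10 and 16 in INS-SMA. The ratio was 21.3 (95% interval 5.50 to 182), and the fitted log2 rise was 4.18 (SE 0.93, edgeR adjusted p = 0.0115). Without INS-MOCK replicate 2, which held both INS-MOCK counts, the fitted value was 6.80, which depends on the prior count and is no bound. Ciita had too few counts to be tested under the strict low-count filter. The intervals cover counting error only.

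**Figure D4:**
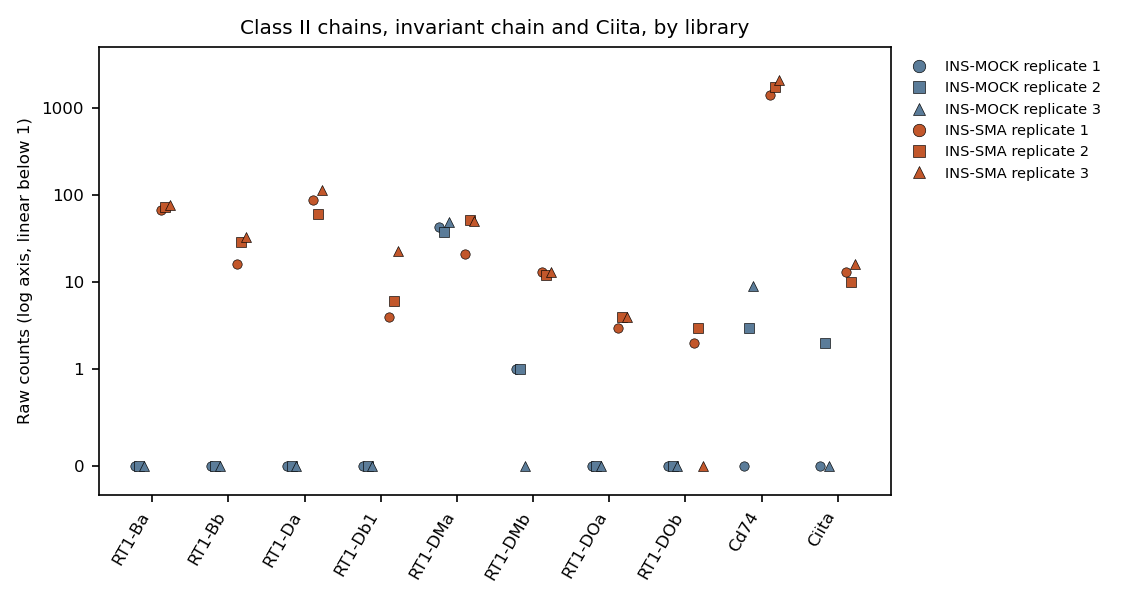
Raw counts (log axis, linear below 1) of the 8 class II chain genes, Cd74 and Ciita in each library. The INS-MOCK libraries sit at 0 to 9 counts for all genes but RT1-DMa, and Cd74 reaches 1401 to 2103 counts in INS-SMA.

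Markers of leukocytes, the cells in which class II is normally found, were low in both groups but not equal. Of 21 such markers 12 were among the named genes, 5 were tested, 1 rose and 0 fell, where 28.1% of all tested genes rose and 27% fell. The summed level was 0.867 to 4.53 CPM in INS-MOCK and 5.96 to 11.2 CPM in INS-SMA. The marker that rose was Ptprc (CD45), from 0 counts to 31, 34 and 29 (edgeR adjusted p = 0.00148). Without INS-MOCK counts, Ptprc could pass the low-count filter only through INS-SMA, so its direction was fixed by being tested. Cd4 had 0, 40 and 15 counts in INS-MOCK and 54, 37 and 162 in INS-SMA and did not pass (adjusted p = 0.212). The macrophage marker Adgre1 had 0, 7 and 0 counts in INS-MOCK and 21, 21 and 20 in INS-SMA, groups that do not overlap, and did not pass (log2 value 3.22, adjusted p = 0.0665). Aif1 was at 0 in every INS-SMA library. Cd14, Xcr1 and Cd8a had 0 counts in INS-MOCK and at most 3 in an INS-SMA library. Ms4a1 had 0 counts in INS-MOCK and 2, 2 and 3 in INS-SMA, and Cd163 had 0 in INS-MOCK and 4, 0 and 7 in INS-SMA. Flt3 had 3, 5 and 0 counts in INS-MOCK and 2, 13 and 7 in INS-SMA. Csf1r (log2 value 0.24) and Cd68 (-0.82) were tested and did not pass. Itgam, Itgax, Lyz2, Cd79a, Cd79b, Cd3e, Cd3d and Nkg7 were not among the named genes. The part of such cells in the class II result was not tested.

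Other genes of the class I pathway moved in both directions. Of 17 pathway partners, all tested, 7 rose and 5 fell, with a median log2 fold change of -0.35. Over all tested genes 28.1% rose and 27% fell, with a median of 0.03. The immunoproteasome genes rose, with Psmb8 going from 30.6 ± 3.92 to 88.3 ± 6.11 CPM (log2 fold change 1.53, edgeR adjusted p = 1.54e-04). Psmb10 rose as well (2.53, adjusted p = 0.0241), as did the proteasome activator genes Psme1 (0.85) and Psme2 (0.94) and the cytosolic peptidase gene Tpp2 (0.54). By contrast, the chaperones that fold class I and hold it for loading fell. Calr (calreticulin) went from 1013 ± 27.2 to 195 ± 36.9 CPM, a fall of 2.38 on the log2 scale. Canx (calnexin) fell by 1.48 and Pdia3 (ERp57, the thiol oxidoreductase of the loading complex) by 1.88. Sec61a1, a subunit of the protein translocation channel, fell by 1.90 (adjusted p = 4.06e-06) and Hspa5 by 1.68. Calr, Canx and Pdia3 are general chaperones of the endoplasmic reticulum and not specific to class I. In these libraries tapasin and TAP transcripts thus rose while those of their chaperone partners fell.

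Of 16 regulators of MHC transcription, 15 were named and tested, 7 rose and 2 fell. Over all tested genes 28.1% rose, 27% fell and 55.1% did either. Irf1, an interferon-induced activator of class I genes, went from 34.6 ± 6.38 to 390 ± 2.10 CPM (log2 fold change 3.50, SE 0.14, edgeR adjusted p = 1.91e-05). Irf2, a related factor, rose by 1.65. Rela, an NF-kappaB subunit, rose by 0.73 (adjusted p = 3.40e-05). The RFX complex, which binds MHC promoters, gave no common direction. Rfxap fell by 0.87 (adjusted p = 0.00749) and Rfxank, at -1.97, did not pass (adjusted p = 0.072). Rfx5 had 4, 0 and 0 counts in INS-MOCK and 7, 614 and 12 in INS-SMA, so that its value rests on INS-SMA replicate 2 (adjusted p = 0.0513). Nfya, a subunit of the factor that binds CCAAT, fell by 1.80. Of the other subunits, Nfyb did not pass (0.36), and Nfyc rose from 0, 0 and 1 counts to 52, 565 and 33 (adjusted p = 0.00878). Nfyc could pass the low-count filter only through INS-SMA, which fixed its direction, and its level rests largely on INS-SMA replicate 2. Genes for interferons themselves differed too: Ifnb1 had 0 counts in INS-MOCK and 156, 167 and 258 in INS-SMA. Ifng was not among the named genes. The interferon gamma receptor genes Ifngr1 (1.02) and Ifngr2 (0.29) rose.

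Partners of the class II pathway, which include proteases and costimulatory genes, moved in both directions. Of 13 listed symbols 10 were named and 8 tested, and 2 rose and 4 fell, where 28.1% of all tested genes rose and 27% fell. The lysosomal protease genes Ctsb (-1.60), Ctsl (-0.69), Ctsd (-0.85) and Lgmn (-0.79) fell. Ifi30, which encodes the interferon-induced lysosomal thiol reductase GILT, rose from 6.49 ± 0.31 to 19.9 ± 1.28 CPM (log2 fold change 1.61, edgeR adjusted p = 1.25e-04). The costimulatory receptor gene Cd40 rose by 4.90, from 4, 2 and 5 counts in INS-MOCK to 78, 97 and 138 in INS-SMA. The costimulatory ligand gene Cd86 had 3 counts, in 1 INS-SMA library, and Cd80 did not pass (0.30). Of 11 class I-like genes without an RT1 name 7 were named and 3 tested. Mill1 rose by 4.49, from 0, 2 and 4 counts in INS-MOCK to 23, 53 and 60 in INS-SMA. With so few INS-MOCK counts, Mill1 and Cd40 could pass the low-count filter only through INS-SMA, so their direction was fixed by being tested. Cd1d1 (0.64) rose as well, and the iron regulator gene Hfe fell by 0.64.

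Position gave a last comparison. Of the 37 members, 31 lie on chromosome 20, and 30 of them between 1337149 and 5476193. The other tested genes of that interval numbered 118, of which 48 (40.7%) rose and 25 (21.2%) fell, with a median log2 fold change of 0.27. Over all tested genes 28.1% rose and 27% fell, with a median of 0.03. These 118 include Psmb8, Psmb9, Tnf and other genes known to respond to interferon or NF-kappaB, for example the ubiquitin-like modifier gene Ubd (6.90) and Trim26 (2.69). Genes that fell lay among them, such as the tubulin gene Tubb5 (-1.98). Of the members outside chromosome 20, B2m, Tapbpl, Cd74 and Ciita rose, while Erap1 (-0.23) and Nlrc5 (-0.0036) did not pass. Cd74 and Ciita passed the low-count filter only through INS-SMA. Whether position plays a part was not tested.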

How the data were processed

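RNA of 6 INS-1 cultures (3 INS-MOCK, 3 INS-SMA) was sequenced. The authors deposited raw counts per transcript row, whole numbers with 1 column per library. HISAT2, HISAT and DESeq2 and the builds hg19 and rn6 are named, without roles, per the submitters' processing notes. The annotation, strand setting and counting program were not given in the sources used here. Of 101905 rows, 35604 name a gene and 66301 do not. The latter (32.7% to 36.7% of counts) entered neither library sizes nor tests.

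Counts were summed per gene (21553 genes), filtered with filterByExpr (13363 genes kept) and scaled by TMM. Groups were compared with edgeR 4.0.16 (R 4.3.3), quasi-likelihood test, in a model with group alone. Benjamini-Hochberg adjustment ran over all tested genes, with a threshold of 0.05. SE is the log2 fold change divided by the square root of F. Folds against 0 counts use a floor of 3 counts per library (0.117 to 0.180 CPM). Ratios against a group holding 1 to 3 counts have an exact 95% binomial interval. Floors and intervals cover counting error only. Class sums are described without a p. The test was checked on simulated data.

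Members and lists were chosen with earlier results of these data known. Genes were named by rule: members past the threshold, those with a mean of at least 5 CPM, the 9 non-RT1 members, and the 3 members of each context list with the smallest adjusted p plus Psmb8, Psmb9, Calr, Canx, Pdia3, Irf1 and Rfx5. Some listed items, among them 1 of the 6 promoter motifs searched, are not reported here. Others were named after their values were seen. Endothelial markers (1 of 5 tested, 0 called) and mesenchymal markers (3 of 8 tested, 1 higher and 2 lower) were also listed. No library was a duplicate of another (chi-square divided by degrees of freedom of 46.8 to 61.0 within groups). Alternatives were RLE, upper-quartile and no factors, no or a strict filter (mean of 10 counts), DESeq2 1.42.0, a replicate block, the most abundant row, unnamed rows in library sizes, and leaving out each library.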

Additional observations from a re-analysis of the deposited data

How the results depend on the processing

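Over the 15 alternatives, 14 to 19 members rose. All 17 genes that rose also rose with RLE factors, upper-quartile factors, no factors, no low-count filter, DESeq2, library sizes that include unnamed rows, and without INS-MOCK replicates 2 or 3. RT1-CE7 lost its call without INS-MOCK replicate 1 or any INS-SMA library and in its most abundant row. Under the strict filter Ciita and RT1-DMb were not tested, and the median of the 27 members left was 1.07. Leaving out 1 library gave 16 to 18 members higher, 0 to 1 lower (RT1-S3, without INS-MOCK replicate 1), medians of 1.71 to 2.25, class I sums 1.59-fold to 1.93-fold higher and class II sums 6.13-fold to 6.74-fold higher. Over all genes 7359 were called, and 5114 to 8300 under the alternatives.

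With a replicate block, 14 members rose, 0 fell and 6294 genes were called. RT1-CE7 (adjusted p = 0.0862), RT1-Bb (0.0583) and Ciita (0.0635) lost their calls. Same-numbered libraries did not deviate together (r of -0.013 to 0.0026 across genes, and 0 of 6 libraries correlated best with their own number), so the numbers are not taken as pairs.

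The sign of Nlrc5 turned with RLE factors (0.024), no factors (0.091), the strict filter (0.015), DESeq2 (0.025), the replicate block (0.31), and without INS-MOCK replicates 2 (0.04) or 3 (0.73) or INS-SMA replicates 2 (0.18) or 3 (0.13), in a range of -0.50 to 0.73 over the libraries left out. That of RT1-A2 turned without INS-MOCK replicate 3 (-0.0065, against up to 1.43 without INS-MOCK replicate 1). None of these values passed the test, and the cause was not tested. Depth limits the class II genes, many of which had fewer than 100 counts in any library.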
